A study of Mus musculus with 57 samples.

Results

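The genes described here encode 4 keratins (Krt7, Krt8, Krt18 and Krt19), 4 claudins (Cldn3, Cldn4, Cldn6 and Cldn7) and the epithelial cell adhesion molecule Epcam. They were chosen by name and matched to Ensembl identifiers through GENCODE M21, and all 9 were found among 55450 gene lines. Mouse ESCs of the Sox1-EGFP/FoxA2mCherry line, a clone grown from a single sorted cell in which EGFP replaces an allele of Sox1 and mCherry is fused to FOXA2, were profiled by bulk RNASeq in 57 libraries, with 3 biological replicates of each of 19 conditions. The gates were double-negative (Sox1-FOXA2-), FOXA2 single-positive (Sox1-FOXA2+), Sox1 single-positive (Sox1+FOXA2-) and double-positive (Sox1+FOXA2+). In 39 libraries the cells were sorted and frozen directly, as double-negative cells at D0 and from all 4 gates at D2, D4 and D6 in N2B27 medium with 1 uM retinoic acid (RA). In 18 libraries, called progeny, FOXA2 single-positive, Sox1 single-positive or double-positive cells were sorted at D2 and replated in serum medium without LIF and with 1 uM RA, then collected at D4 or D6 in total. All cells therefore carry both reporter alleles, and progeny differ from sorted cells in replating, in basal medium and in not being gated again at collection, which cannot be told apart. In these bulk libraries, fewer cells of a type and less RNA per cell cannot be told apart.

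Keratins build the intermediate filaments of epithelial cells, in which a type I chain (Krt18 or Krt19) pairs with a type II chain (Krt7 or Krt8). Krt8 and Krt18 are the pair of simple epithelia, and among the first keratins of the embryo, where they are known from trophectoderm and extraembryonic endoderm. Claudins are the membrane proteins that seal tight junctions between neighbouring epithelial cells, and Epcam is a surface adhesion molecule of epithelia that is also made by ESCs.

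Promoter sequences are shown for Krt8, its partner Krt18, Cldn6 and Epcam, on which the comparisons turn together with Krt19. They come from RefSeq on GRCm38.p6, and the stretches that lie upstream of every annotated transcript in the 250 bases before the start site are printed 5′ to 3′ on the strand of the gene. Capitals mark matches, on either strand, to AGATAAG or TGATAAG (the core bound by GATA factors), AGGTCA (a core bound by nuclear receptors, retinoic acid receptors included), GGGCGG (the GC box) and ACCGGT (a core bound by GRHL factors).
Krt8 (chr15:102004483-102004592, minus strand): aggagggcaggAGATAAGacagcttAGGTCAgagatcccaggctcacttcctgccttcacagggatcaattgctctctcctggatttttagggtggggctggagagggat
Krt18 (chr15:102027966-102028179, plus strand): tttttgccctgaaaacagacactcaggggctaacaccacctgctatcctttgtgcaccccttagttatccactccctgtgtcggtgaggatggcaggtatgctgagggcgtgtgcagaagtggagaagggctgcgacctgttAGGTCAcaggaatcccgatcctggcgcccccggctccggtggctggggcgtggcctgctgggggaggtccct
Cldn6 (chr17:23679115-23679248, plus strand): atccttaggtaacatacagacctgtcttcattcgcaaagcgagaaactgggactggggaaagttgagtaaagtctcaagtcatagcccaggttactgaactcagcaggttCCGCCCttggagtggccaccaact
Epcam (chr17:87635729-87635978, plus strand): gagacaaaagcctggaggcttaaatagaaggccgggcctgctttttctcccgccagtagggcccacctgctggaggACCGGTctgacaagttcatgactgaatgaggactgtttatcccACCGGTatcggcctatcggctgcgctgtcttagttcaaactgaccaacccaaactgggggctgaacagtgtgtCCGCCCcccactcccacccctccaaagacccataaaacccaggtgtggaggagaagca
In the Krt8 promoter the GATA core starts at position -239 and the nuclear receptor core at -225, and in the Krt18 promoter the latter starts at -108, counted back from the start site. The Epcam promoter holds the GRHL core at -174 and at -131 and a GC box at -58, and the Cldn6 promoter holds GC boxes at -140 and at -8, of which the second lies outside the printed stretch. Of 32851 mouse promoters of the same length, 1.86% held the GRHL core, 4.68% the GATA core, 14.0% the nuclear receptor core and 32.7% the GC box. The letters TGTTTAC or TGTTTGC (a core bound by FOXA factors, in 7.29% of all promoters) and TATAAA (12.4%) were not matched in any of the windows searched, and TGACTCA or TGAGTCA (the AP-1 site, 4.46%) was matched in that of Cldn4. No match was drawn on for any comparison, and the sequences stand as a description. Krt8 lies at chr15:101996698-102004482 and Krt18, its neighbour, at chr15:102028180-102032027. Cldn3 (chr5:134986214-134987472) and Cldn4 (chr5:134945119-134946934) are neighbours too. Krt7 (chr15:101411043-101430313) lies on the chromosome of Krt8 and Krt18, farther from them than they lie from each other. Krt19 (chr11:100140810-100148665), Cldn7 (chr11:69964779-69967885), Cldn6 (chr17:23679249-23682446) and Epcam (chr17:87635979-87651129) lie on other chromosomes.

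Each library held between 10170632 and 81845651 counts (median 36694379), so that 3 counts corresponded to between 1.13 and 13.3 normalized counts (counts divided by DESeq2 size factors over all libraries). Foxa2, the gene of the mCherry gate, had 1478 to 2697 normalized counts in D6 FOXA2 single-positive cells against 20.3 to 131 in D6 Sox1 single-positive cells, but 0, 728 and 76.6 in D6 double-positive cells. Sox1 and Sox2 were listed at 0 in all 57 libraries, so that the EGFP gate could not be checked against its gene. Replicate 1 of the D6 progeny of FOXA2 single-positive cells stood apart, with the highest level among all 57 libraries for 5 of the 9 genes. In this library Krt7 had 7030 normalized counts against 537 and 680 in the other replicates, Krt18 had 40786 against 10108 and 9977, Cldn4 had 3024 against 33.9 and 298, and Cldn7 had 1372 against 51.4 and 124. Cdh1 (E-cadherin, the adhesion protein of epithelial adherens junctions) had 32602 there against 2264 and 4724. Calls of the 9 genes in the main setting that use this library are given with and without it. Differences of other named genes, and counts under other settings that leave out no library, include it. Replicate 3 of D2 double-negative cells stood low, with 68.4 normalized counts of Krt8, 59.1 of Krt18 and 0 of Krt19. Replicate 3 of D2 Sox1 single-positive cells also differed from its replicates. Its summed level of 8 pluripotency genes was 32632 against 6501 and 8433, and that of 8 neuroectoderm genes 3559 against 14518 and 11869. It had 0 of Krt19 and Cldn4, 1.77 of Cldn6, 228 of Krt18 and 626 of Cldn3. The main comparisons with D2 Sox1 single-positive cells include it.

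Per kilobase of exon, Krt18 and Krt8 were the most abundant of these genes. Their mean level over all libraries was 5184 and 4366 normalized counts per kilobase, followed by Krt19 at 2059, Epcam at 583, Cldn6 at 385 and Cldn4 at 188. Krt7 (89.9), Cldn7 (60.6) and Cldn3 (37.9) were low, and Cldn3 was at 0 in 26 of 57 libraries, so that its values carry little weight. Krt8 and Krt18 were detected in all 57 libraries, as was Epcam.

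Krt19 separated progeny from directly sorted cells over all libraries, and Krt8 and Krt18 did so in part. Krt19 ranged from 0 to 4502 normalized counts (median 869) in the 39 sorted libraries and from 5222 to 16680 (median 8905) in the 18 progeny libraries, without overlap. The sorted set also holds D0 and D2 libraries and double-negative cells, which the progeny lack, so that day and gate differ too. The share of all genes that separate these sets was not counted. Krt8 ranged from 68.4 to 12595 (median 2485) in sorted and from 6109 to 40715 (median 16484) in progeny libraries, and Krt18 from 59.1 to 12199 (median 3115) and from 6937 to 40786 (median 12938), so that both overlapped in part. Epcam went the other way in its median, with 548 to 3606 (median 1377) in sorted and 115 to 2648 (median 540) in progeny libraries. The claudins and Krt7 overlapped widely. Cldn6 had a median of 203 in sorted and 654 in progeny libraries, and Cldn4 of 90.6 and 488.

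**Figure D1:**
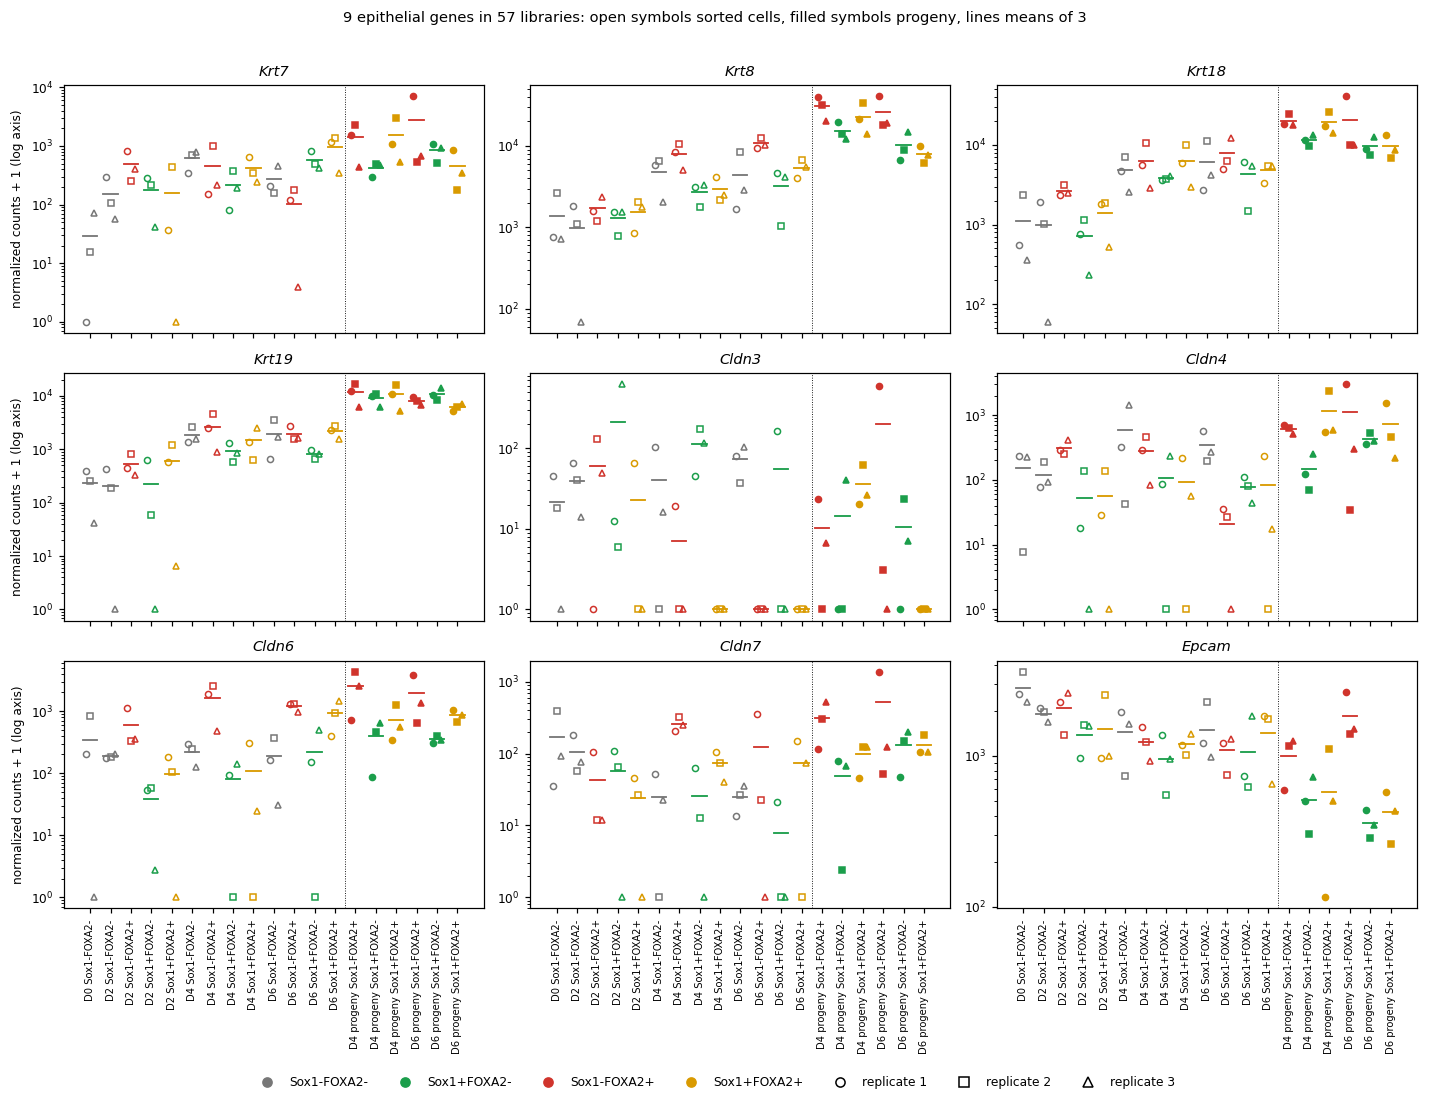
Level of each gene in the libraries of all 19 conditions, as normalized counts plus 1 on a log axis, with open points for sorted cells, filled points for progeny and lines for the means of 3 libraries. Krt19 lay at or below 4502 in every sorted library and at or above 5222 in every progeny library, whereas the points of Epcam, Cldn3 and Cldn7 overlapped between sorted cells and progeny. The sorted libraries include D0, D2 and double-negative cells, which the progeny do not.

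Ordered by mean level over the 19 conditions, conditions next to each other overlapped in all 18 neighbouring pairs for 7 of the 9 genes, so that the order itself is loose. For Krt18 15 of 18 pairs overlapped and for Krt19 17 of 18. Krt8 was highest in the D4 progeny of FOXA2 single-positive cells, at 30730 ± 10166 normalized counts (SD, n = 3), and lowest in D2 double-negative cells, at 991 ± 877. Krt19 had the same highest and lowest condition, at 11798 ± 5203 and 208 ± 218. Cldn6 was highest in the D4 progeny of FOXA2 single-positive cells (2516 ± 1784) and lowest in D2 Sox1 single-positive cells (36.7 ± 30.3). Epcam was highest at D0, with 2586, 3606 and 2274 normalized counts in the 3 libraries, and lowest in the D6 progeny of Sox1 single-positive cells, with 439, 286 and 350.

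Every gene was then tested between gates, days and arms with edgeR's quasi-likelihood test, in which a gene is called at a Benjamini-Hochberg adjusted p under 0.05 over all genes tested. Of 261 pairs of a gene and a comparison (9 genes in 29 comparisons), 258 could be tested and 16 were called, 14 higher and 2 lower in the group named first. The calls fell on Krt8, Krt18, Krt19, Cldn6 and Epcam, and none on Krt7, Cldn3, Cldn4 or Cldn7.

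The first question was whether the sorted populations differ in these genes. At D2 none of the 9 was called between FOXA2 single-positive and Sox1 single-positive cells, where 0% of 20369 genes were called by edgeR. At an unadjusted p under 0.05 there were 2 of the 9 (Krt18 and Cldn6) and 1037 of all genes, and DESeq2 called none of the 9 and 346 genes in all. At D4 none was called against 0.227% of all genes, with 3 (Krt8, Krt19 and Cldn6) and 1236 of all genes at an unadjusted p under 0.05, and none and 622 called by DESeq2. At D6 none was called against 1.09%, with 4 (Krt8, Krt19, Cldn3 and Cldn6) and 3175 of all genes at an unadjusted p under 0.05, and 1 (Cldn3) and 2094 called by DESeq2. Cldn3 then had 0 in every FOXA2 single-positive library and 164, 0 and 0 normalized counts in Sox1 single-positive cells, so that it rests on a single library.

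Krt8 and Cldn6 nevertheless lay higher in every FOXA2 single-positive library than in any Sox1 single-positive library at D4 and D6, as did 6.14% and 6.97% of all genes. Cldn7 did so at D4 and Krt19 at D6. Krt7 and Cldn4 went the opposite way without overlap at D6, as did 16.3% of all genes. Cldn3 at D4 was low in both groups, with 18.5, 0 and 0 normalized counts in FOXA2 single-positive and 44.0, 175 and 115 in Sox1 single-positive cells (log2 difference -4.10, SE 3.27). Krt8 had 8345, 10664 and 5093 normalized counts in D4 FOXA2 single-positive cells and 3114, 1792 and 3288 in D4 Sox1 single-positive cells, a difference of 1.64 on the log2 scale (SE 0.48, edgeR adjusted p = 0.345). At D6 it had 9445, 12595 and 10169 against 4602, 1041 and 4101, a difference of 1.92 (SE 0.56, edgeR adjusted p = 0.121). The replicate numbers paired the libraries of these groups at D4 and at D6. With the replicate number as a block none of the 9 was called at D4, where 0.706% of all genes were called. At D6 Krt8 was called with the block (log2 difference 1.76, SE 0.47, edgeR adjusted p = 0.0283), where 2.50% of all genes were called. Without replicate 1 or 2 of D6 double-negative cells or replicate 2 of D6 double-positive cells, which add only to the estimate of the spread, the count of called genes among the 9 was 1 (Krt8) instead of 0.

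Cldn6 had 1854, 2565 and 478 normalized counts in D4 FOXA2 single-positive cells against 92.6, 0 and 142 in D4 Sox1 single-positive cells, and 1317, 1288 and 973 against 151, 0 and 492 at D6. The groups did not overlap on either day, but the log2 differences of 4.54 (SE 1.68) and 2.72 (SE 1.29) had edgeR adjusted p of 0.720 and 0.381. Already at D2 Cldn6 had 1115, 324 and 359 against 52.3, 56.1 and 1.77 (log2 difference 4.04, SE 1.67, edgeR adjusted p = 0.910). Krt18 had 2362, 3115 and 2479 against 765, 1127 and 228 at D2, and Cldn4 had 285, 249 and 408 against 17.4, 137 and 0. None of these was called. Epcam overlapped between these gates on every day, with 1086 ± 297 in FOXA2 single-positive and 1060 ± 665 in Sox1 single-positive cells at D6 (SD, n = 3). Krt7 was lower in every D6 FOXA2 single-positive library (118, 179 and 2.86) than in any D6 Sox1 single-positive library (804, 489 and 422), which was not called either (log2 difference -2.25, SE 1.21, edgeR adjusted p = 0.407), and 16.3% of all genes were lower without overlap there. Genes of visceral and parietal endoderm moved with the gate on both days: 7 of 13 tested genes of a list of 15 were called higher in FOXA2 single-positive than in Sox1 single-positive cells at D4 and 9 of 15 at D6. This list holds Foxa2, the gene of the mCherry gate, and was chosen with earlier results of these data known. The summed level of the listed genes was 958896 to 1951228 normalized counts in D6 FOXA2 single-positive and 12104 to 18774 in D6 Sox1 single-positive cells, and their part in the levels of Krt8 and Cldn6 was not tested. Such a sum follows the most abundant genes of a list, which are named below for D6 progeny.

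edgeR called none of the 9 genes between double-positive cells and another gate on a sorted day. Against Sox1 single-positive cells 0%, 0% and 0.0992% of all genes were called at D2, D4 and D6. At an unadjusted p under 0.05 there were 0, 1 (Cldn3) and 2 (Krt19 and Cldn3) of the 9 beside 1542, 1531 and 1041 of all genes, and DESeq2 called 0, 0 and 1 (Cldn3) beside 623, 398 and 299. At D6 Cldn3 was at 0 in every double-positive library and again rests on the single Sox1 single-positive library with 164 normalized counts. Cldn3 was lower without overlap at D4, as were 4.21% of all genes, and Krt19 higher at D6, as were 4.25%. Against FOXA2 single-positive cells 0%, 0.462% and 0.0454% of all genes were called. At an unadjusted p under 0.05 there were 0, 2 (Krt8 and Cldn6) and 2 (Krt7 and Krt8) of the 9 beside 1698, 2407 and 3280 of all genes, and DESeq2 called 0, 1 (Krt8) and 1 (Krt7) beside 767, 1117 and 2023.

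The libraries of double-positive and FOXA2 single-positive cells did not overlap for some of the genes. Krt18, Cldn4 and Cldn6 were lower in double-positive cells at D2, where 4.86% of all genes were, and Krt8, Cldn6 and Cldn7 at D4, where 6.79% were. At D6 Krt7 lay higher, as did 6.90% of all genes, and Krt8 lower, as did 4.63%. Krt8 then had 4049, 6680 and 5577 normalized counts in double-positive cells, which overlapped with Sox1 single-positive cells.

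**Figure D2:**
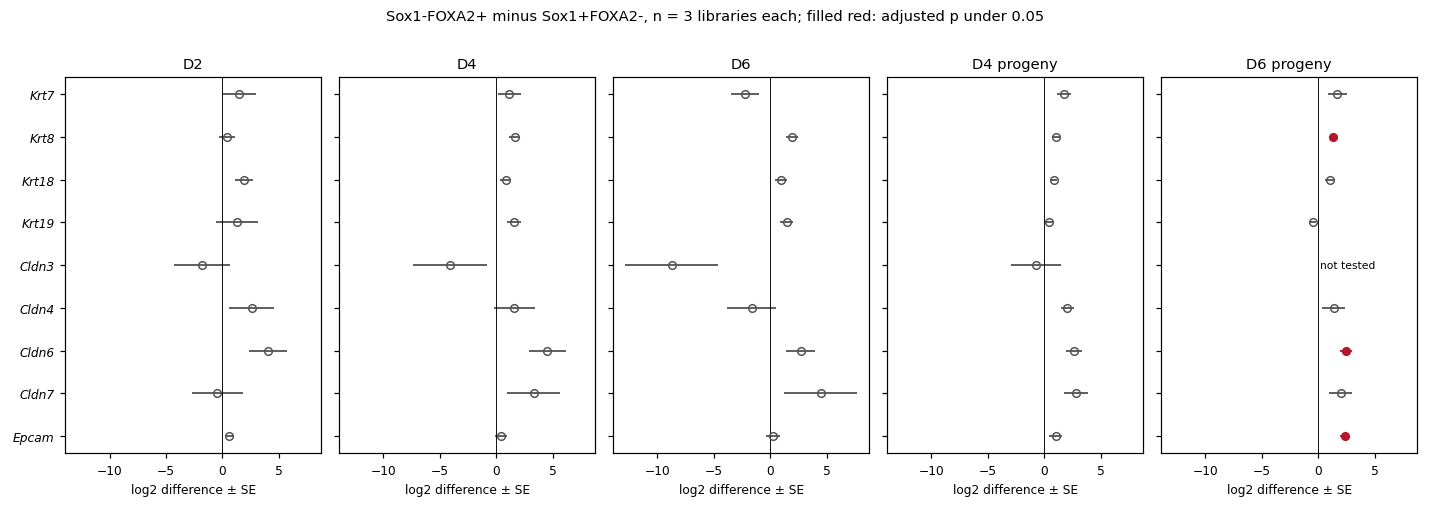
Log2 difference between FOXA2 single-positive and Sox1 single-positive populations for each gene at D2, D4, D6 and in D4 and D6 progeny, with bars of 1 SE, and filled red points for an edgeR adjusted p under 0.05. Krt8, Cldn6 and Epcam in D6 progeny are the called points, and the bars of Cldn3, Cldn4 and Cldn7 in sorted cells are wide.

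The next question was how the genes change with time. From D0 on, time cannot be told apart from the change of medium. In double-negative cells none of the 9 was called between D0 and D2, D4 or D6, where 1.41%, 1.26% and 4.02% of all genes were called by edgeR. At an unadjusted p under 0.05 there were 0, 5 (Krt7, Krt8, Krt18, Krt19 and Epcam) and 4 (Krt7, Krt18, Krt19 and Epcam) beside 3308, 3573 and 4547 of all genes, and DESeq2 called 0, 1 and 1 (Krt7 both times) beside 2064, 2366 and 3435. Krt18 had 557, 2365 and 360 normalized counts at D0 and 2743, 11276 and 4145 at D6, without overlap (log2 difference 2.41, SE 0.89, edgeR adjusted p = 0.147). Krt19 likewise had 391, 258 and 41.3 at D0 and 654, 3498 and 1706 at D6, and 14.9% of all genes were higher without overlap. Without replicate 2 of D0 cells Krt18 was called, and without replicate 3 of D2 double-negative cells Krt18 and Krt19 were, so that the count was between 0 and 2. Epcam was lower in every library at D6 (1214, 2263 and 985) than at D0, with a log2 difference of -0.96 (SE 0.41, edgeR adjusted p = 0.197), beside 9.63% of all genes that were lower without overlap. The summed level of 8 pluripotency genes, Pou5f1 and Nanog among them, was 47092 to 106145 normalized counts at D0 and 18582 to 26875 in D6 double-negative cells, and its part in the level of Epcam was not tested.

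Krt8 rose from D2 to D6 in FOXA2 single-positive cells. It had 1595, 1193 and 2370 normalized counts at D2 and 9445, 12595 and 10169 at D6, a rise of 2.55 on the log2 scale (SE 0.45, edgeR adjusted p = 0.00230), or 5.86-fold, and it was the called gene among the 9, where 1.34% of all genes were called and 0.782% were called higher. All D6 libraries lay far above the D2 libraries, as 7.65% of all genes did without overlap, and the adjusted p stayed at or below 0.0263 with any replicate number left out. In the same interval 9 of 15 genes of visceral and parietal endoderm rose, and their part in the rise of Krt8 was not tested. Epcam was lower in every D6 than in every D2 FOXA2 single-positive library (1213, 747 and 1299 against 2278, 1376 and 2619), a log2 difference of -1.06 that was not called (SE 0.49, edgeR adjusted p = 0.328), and 6.37% of all genes were lower without overlap. In Sox1 single-positive cells none of the 9 was called from D2 to D6, nor was any other gene (0% of 24696), with 2 of the 9 (Krt8 and Krt18) and 2436 of all genes at an unadjusted p under 0.05, and 1 (Krt18) and 797 called by DESeq2. Krt18 there had 765, 1127 and 228 normalized counts at D2 and 6163, 1489 and 5386 at D6 (log2 difference 2.37, SE 0.53, edgeR adjusted p = 0.230), and was called without replicate 2. The change of Krt8 was larger in FOXA2 single-positive than in Sox1 single-positive cells by 1.48 on the log2 scale (SE 0.61), but this difference was not called (edgeR adjusted p = 0.401). Neither was that of any other of the 9 genes, where 0.275% of all genes were called, 2 of the 9 (Krt7 and Krt8) and 2483 of all genes had an unadjusted p under 0.05, and DESeq2 called 1 (Cldn3) and 1534.

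The same question was put to progeny, and Krt8, Cldn6 and Epcam were higher in the D6 progeny of FOXA2 single-positive than of Sox1 single-positive cells. Of 8 genes tested (Cldn3 did not pass the filter on low counts) 3 were called higher and none lower, where 6.78% of all genes were called and 3.49% were called higher. Epcam had 2648, 1392 and 1507 normalized counts in the progeny of FOXA2 single-positive cells and 439, 286 and 350 in that of Sox1 single-positive cells, a difference of 2.33 on the log2 scale (SE 0.39, edgeR adjusted p = 0.00192), or 5.04-fold. The libraries were far apart, and Epcam was called in all 15 alternative settings.

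Cldn6 had 3822, 635 and 1372 normalized counts against 301, 403 and 344, a difference of 2.44 (SE 0.52, edgeR adjusted p = 0.0100), or 5.44-fold. All FOXA2 single-positive libraries were higher, but they spread widely among themselves. Krt8 had 40715, 17948 and 19291 against 6675, 8899 and 15021, a difference of 1.32 (SE 0.36, edgeR adjusted p = 0.0433), or 2.51-fold. The lowest library of the FOXA2 single-positive and the highest of the Sox1 single-positive progeny lay close to each other. None of the 3 genes overlapped, and 12.8% of all genes were higher without overlap.

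Without replicate 1 of the FOXA2 single-positive progeny, the library that stood apart, Epcam (log2 difference 1.95, SE 0.38, edgeR adjusted p = 0.00351) and Cldn6 (1.44, SE 0.37, edgeR adjusted p = 0.0254) were still called, and Krt8 was not (0.81, SE 0.30, edgeR adjusted p = 0.150), where 7.23% of all genes were called. Krt8 was also lost without replicate 1 (edgeR adjusted p = 0.164) or replicate 2 (0.112) of the Sox1 single-positive progeny. With all 57 libraries in a single fit, Epcam was called, and Krt8 (edgeR adjusted p = 0.680) and Cldn6 (0.822) were not. Krt7, Krt18, Cldn4 and Cldn7, which were higher in the mean of the FOXA2 single-positive progeny and not called, turned to log2 differences of -0.54, -0.01, -1.48 and -0.65 without that library. Krt19 was not higher in FOXA2 single-positive progeny with it (-0.47, SE 0.24, edgeR adjusted p = 0.338) or without it (-0.61, SE 0.26, edgeR adjusted p = 0.224). Beside these values, 11 of 15 genes of visceral and parietal endoderm were called higher in the D6 progeny of FOXA2 single-positive cells, with summed levels of 1040865 to 2004962 against 62948 to 160609 normalized counts, while 7 of 10 mesenchyme genes were called lower and 1 higher, and 4 of 5 tested neuroectoderm genes were called lower. In the progeny of FOXA2 single-positive cells Lama1, Lamb1, Col4a1 and Sparc made up most of the endoderm sum. Lama1 had 301530, 640846 and 584509 normalized counts and Col4a1 358566, 536156 and 502055. Of the same list, Ttr (0, 55.5 and 88.0), Apoa1 (6.90, 39.0 and 16.2) and Fgb (0, 0 and 8.98) were low. Cubn had 15908, 16097 and 28933. The summed endoderm level of the library that stood apart was the lowest of its group, at 1040865, and its summed surface ectoderm level of 3951 the highest of its group, against 1470 and 1709. Of these 7 surface ectoderm genes Dlx3 (2987, the highest of all 57 libraries, against 233 and 273) and Msx2 (896 against 678 and 882) made up most of that sum, whereas Krt5 was at 0 and Trp63 at 10.3. The part of these other cell types in the 3 called genes was not tested.

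**Figure D3:**
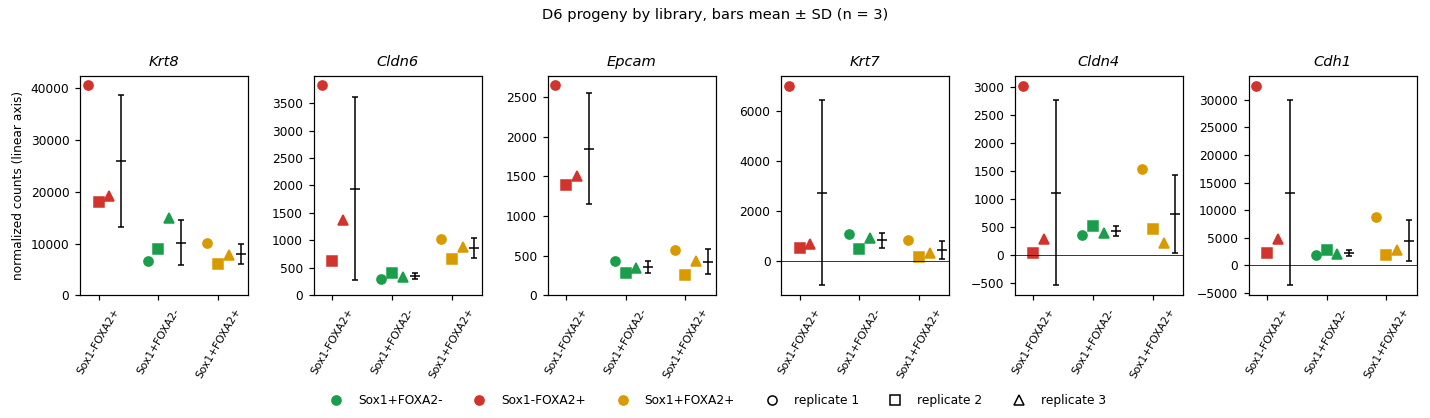
Normalized counts of Krt8, Cldn6, Epcam, Krt7, Cldn4 and Cdh1 in each library of the D6 progeny, with the mean and SD of the 3 replicates. Epcam lay at 1392 or higher in the progeny of FOXA2 single-positive cells and at 575 or lower in the others, while Krt7, Cldn4 and Cdh1 were high in a single FOXA2 single-positive library.

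The D6 progeny of double-positive cells had levels of Krt8 and Epcam that overlapped with those of the Sox1 single-positive progeny. Against the progeny of FOXA2 single-positive cells 2 genes were called lower and none higher, where 4.48% of all genes were called and 2.22% were called lower. Epcam had 575, 262 and 434 normalized counts, a log2 difference of -2.15 (SE 0.38, edgeR adjusted p = 0.00598), and Krt8 had 10035, 6109 and 7825, a log2 difference of -1.73 (SE 0.37, edgeR adjusted p = 0.0158). Neither overlapped with the FOXA2 single-positive progeny, and 10.1% of all genes were lower without overlap. Without the library that stood apart both were still called (Epcam -1.77, edgeR adjusted p = 0.00969, and Krt8 -1.22, edgeR adjusted p = 0.0260, among 5.48% of all genes). Krt8 was not called without replicate 2 of the double-positive progeny (edgeR adjusted p = 0.0819). With all 57 libraries in a single fit neither Epcam (edgeR adjusted p = 0.0702) nor Krt8 (0.338) was. The replicate numbers paired these libraries by the rule given below (r of 0.151, 0.118 and 0.430), but not every library correlated best with its own number. With the replicate number as a block Krt7 was called too (log2 difference -2.06, SE 0.51, edgeR adjusted p = 0.0424), for 3 genes in all among 5.52%. Krt7 rests on the library that stood apart, without which its log2 difference, fitted without the block, was -0.41 (SE 0.51, edgeR adjusted p = 0.813). Of the endoderm genes 10 of 15 were called lower in the progeny of double-positive cells, at summed levels of 211560 to 448070, and their part was not tested.

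Against the D6 progeny of Sox1 single-positive cells none of the 9 was called, where 0.152% of all genes were called, with 2 (Krt19 and Cldn6) and 1956 of all genes at an unadjusted p under 0.05, and 1 (Krt19) and 463 called by DESeq2. Cldn6 in double-positive progeny, at 1027, 668 and 877 normalized counts, lay above every library of the Sox1 single-positive progeny (log2 difference 1.23, SE 0.50, edgeR adjusted p = 0.482). Krt19, at 5222, 6273 and 6984, lay below each of them (10438, 8444 and 14101, log2 difference -0.89, SE 0.24, edgeR adjusted p = 0.255). Without overlap 8.95% of all genes were higher and 7.59% lower.

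At D4 the progeny of the 3 gates gave no call among these genes without the replicate block. None of the 9 was called between the progeny of FOXA2 single-positive and Sox1 single-positive cells, where 1.86% of all genes were called, with 6 (Krt7, Krt8, Krt18, Cldn4, Cldn6 and Cldn7) and 2099 of all genes at an unadjusted p under 0.05, and 2 (Cldn4 and Cldn6) and 937 called by DESeq2. The replicate numbers paired these libraries, and with the replicate number as a block 4 were called, where 4.49% of all genes were. These were Krt8 (log2 difference 0.99, SE 0.21, edgeR adjusted p = 0.00703), Krt18 (0.81, SE 0.22, edgeR adjusted p = 0.0319), Cldn4 (2.04, SE 0.57, edgeR adjusted p = 0.0405) and Cldn6 (2.67, SE 0.37, edgeR adjusted p = 8.4e-05). Krt8 had 40220, 31970 and 20001 normalized counts in the progeny of FOXA2 single-positive and 19492, 14132 and 12331 in that of Sox1 single-positive cells, and Cldn6 had 729, 4298 and 2520 against 85.4, 454 and 639. Within each replicate number both were higher in the progeny of FOXA2 single-positive cells. Without replicate 1 of the FOXA2 single-positive progeny, or replicate 1 or 2 of the double-positive progeny, Cldn6 was called without the block, and without replicate 3 of the Sox1 single-positive progeny Cldn4 and Cldn6 were, for a count between 0 and 2. Here 10 of 12 tested endoderm genes were called higher, at summed levels of 534786 to 712695 against 46308 to 53866, and their part was not tested.

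Against the D4 progeny of FOXA2 single-positive cells, that of double-positive cells had no call among the 9, where 0.768% of all genes were called, with 1 (Cldn6) and 1827 of all genes at an unadjusted p under 0.05, and none and 534 called by DESeq2. With the replicate number as a block Cldn6 was called lower (log2 difference -1.75, SE 0.35, edgeR adjusted p = 0.00614), where 3.27% of all genes were called. Between the D4 progeny of double-positive and Sox1 single-positive cells edgeR called none of the 9 and 0% of all genes, with 3 (Krt7, Krt18 and Cldn4) of the 9 and 954 of all genes at an unadjusted p under 0.05, and 1 (Cldn4) and 86 called by DESeq2. Cldn4 there had 543, 2326 and 587 normalized counts against 124, 67.8 and 254 (log2 difference 2.89, SE 0.62, edgeR adjusted p = 0.329), and 9.08% of all genes were higher without overlap.

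The last comparison set progeny against cells sorted on that day from the same gate, and it gave most of the calls among the 9 genes. All 10 were keratins that were higher in progeny. At D4, 3 genes were called in double-positive cells (where 1.19% of all genes were called and 0.873% were called higher), 2 in Sox1 single-positive cells (0.523% and 0.426%) and 1 in FOXA2 single-positive cells (0.145% and 0.101%). Krt8 rose in all 3 gates: it had 21403, 33427 and 13991 normalized counts in the progeny of double-positive cells against 4202, 2186 and 2485 in sorted cells, a difference of 3.07 on the log2 scale (SE 0.41, edgeR adjusted p = 3.7e-04), or 8.39-fold. In Sox1 single-positive cells it differed by 2.54 (SE 0.40, edgeR adjusted p = 0.00172) and in FOXA2 single-positive cells by 1.91 (SE 0.39, edgeR adjusted p = 0.0492). In each gate the lowest progeny library lay above the highest sorted library, as it did for 9.49%, 6.44% and 6.09% of all genes. Krt8 was not called in FOXA2 single-positive cells without replicate 1 (edgeR adjusted p = 0.592) or replicate 3 (0.380) of all groups, and without replicate 2 Krt8, Krt18 and Krt19 were called there. Without replicate 1 the difference of Krt8 in double-positive cells was 3.86.

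Krt19 at D4 had 10052, 10834 and 6318 normalized counts in the progeny of Sox1 single-positive cells against 1306, 571 and 869 in sorted cells, a difference of 3.35 (SE 0.58, edgeR adjusted p = 0.00429), or 10.2-fold. In double-positive cells it had 10906, 16315 and 5305 against 1371, 623 and 2500, a difference of 3.02 (SE 0.57, edgeR adjusted p = 0.00727). This was 3.36 without replicate 1, where the adjusted p was 0.0538, 2.35 without replicate 2 and 3.94 without replicate 3. Krt18 was called in double-positive cells, with 17530, 26186 and 14149 against 5869, 9901 and 2937 (log2 difference 1.77, SE 0.43, edgeR adjusted p = 0.0415), and was lost without replicate 1 (0.122) or 3 (0.0784). In the other gates Krt18 did not overlap between progeny and sorted cells and was not called, with log2 differences of 1.65 (SE 0.43, edgeR adjusted p = 0.205) in FOXA2 single-positive and 1.66 (SE 0.43, edgeR adjusted p = 0.0969) in Sox1 single-positive cells. No claudin and not Epcam was called at D4. Epcam had log2 differences of -0.28, -0.85 and -0.88 in FOXA2 single-positive, Sox1 single-positive and double-positive cells, each with an SE of 0.61 to 0.62 and an edgeR adjusted p of at least 0.499. With all 57 libraries in a single fit, Krt8 was called in Sox1 single-positive and double-positive cells only, and Krt8 in FOXA2 single-positive cells (edgeR adjusted p = 0.485), Krt19 in Sox1 single-positive (0.263) and double-positive cells (0.141) and Krt18 in double-positive cells (0.210) were not.

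At D6 Krt19 rose in all 3 gates. In Sox1 single-positive cells it had 10438, 8444 and 14101 normalized counts in progeny against 984, 661 and 806 in sorted cells, a difference of 3.95 on the log2 scale (SE 0.36, edgeR adjusted p = 1.0e-06), or 15.4-fold, and it was called in all 10 alternative settings. The lowest progeny library had more Krt19 than any sorted library by a wide margin. In FOXA2 single-positive cells Krt19 had 9366, 8010 and 6897 against 2687, 1541 and 1609 (log2 difference 2.15, SE 0.34, edgeR adjusted p = 0.00680), and in double-positive cells 5222, 6273 and 6984 against 2316, 2790 and 1538 (1.69, SE 0.33, edgeR adjusted p = 0.00754). Krt8 was called in Sox1 single-positive cells, with 6675, 8899 and 15021 against 4602, 1041 and 4101 (log2 difference 1.85, SE 0.43, edgeR adjusted p = 0.0152). Of the 9 genes 1 was thus called in FOXA2 single-positive cells (where 0.145% of all genes were called and 0.118% were called higher), 2 in Sox1 single-positive cells (3.31% and 1.96%) and 1 in double-positive cells (2.17% and 1.41%). All of these were higher without overlap, as were 8.68%, 11.7% and 8.36% of all genes.

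These D6 calls depended on the replicates to unequal degrees. Without the library that stood apart, Krt19 in FOXA2 single-positive cells differed by 2.05 (SE 0.39, edgeR adjusted p = 0.0336), where 0.0504% of all genes were called. Without replicate 1 or 3 of all groups its adjusted p was 0.0618 or 0.0772, and without replicate 2 Krt7 was called beside it. In double-positive cells the adjusted p of Krt19 was 0.0964 without replicate 1 and 0.125 without replicate 3, and Krt8 in Sox1 single-positive cells was lost without replicate 3 (0.162). With all 57 libraries in a single fit, Krt19 was called in Sox1 single-positive cells and not in FOXA2 single-positive (edgeR adjusted p = 0.557) or double-positive cells (0.374), nor was Krt8 in Sox1 single-positive cells (0.0635). Epcam in D6 progeny was lower than in every sorted library of Sox1 single-positive cells (439, 286 and 350 against 735, 621 and 1825, log2 difference -1.35, SE 0.55, edgeR adjusted p = 0.217) and of double-positive cells (575, 262 and 434 against 1838, 1759 and 655, log2 difference -1.53, SE 0.55, edgeR adjusted p = 0.173), and higher than in every sorted library of FOXA2 single-positive cells (0.88, SE 0.54, edgeR adjusted p = 0.511). None of these was called, and 23.9%, 9.71% and 8.68% of all genes moved without overlap in these directions.

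Genes of mesenchyme moved with the arm in part. In D6 Sox1 single-positive cells 5 of 10 were called higher in progeny, at summed levels of 76004 to 134573 normalized counts against 14650 to 18135 in sorted cells, and 8 of 15 endoderm genes were called higher, at 62948 to 160609 against 12104 to 18774. In D6 double-positive cells 2 of 10 mesenchyme genes were called higher (61368 to 69226 against 18135 to 31670), and at D4 between 1 and 3 of 10 in each gate. In D6 FOXA2 single-positive cells the mesenchyme sums overlapped, at 26240, 60179 and 50561 in progeny against 47652, 47524 and 34229 in sorted cells, with 2 of 10 genes called higher. Pdgfra, a gene of this list, made up 7756, 22719 and 23753 of these progeny sums. Trophoblast genes (trophoblast is also known to make keratins) had sums of 2361 to 3225 in D6 progeny against 825 to 2834 in sorted Sox1 single-positive cells, 3754 to 5801 against 1688 to 6758 in double-positive cells, and 1423 to 1721 against 635 to 939 in FOXA2 single-positive cells. Of 8 tested trophoblast genes 1, 1 and 0 were called higher. The part of these cell types in the keratin levels was not tested.

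**Figure D4:**
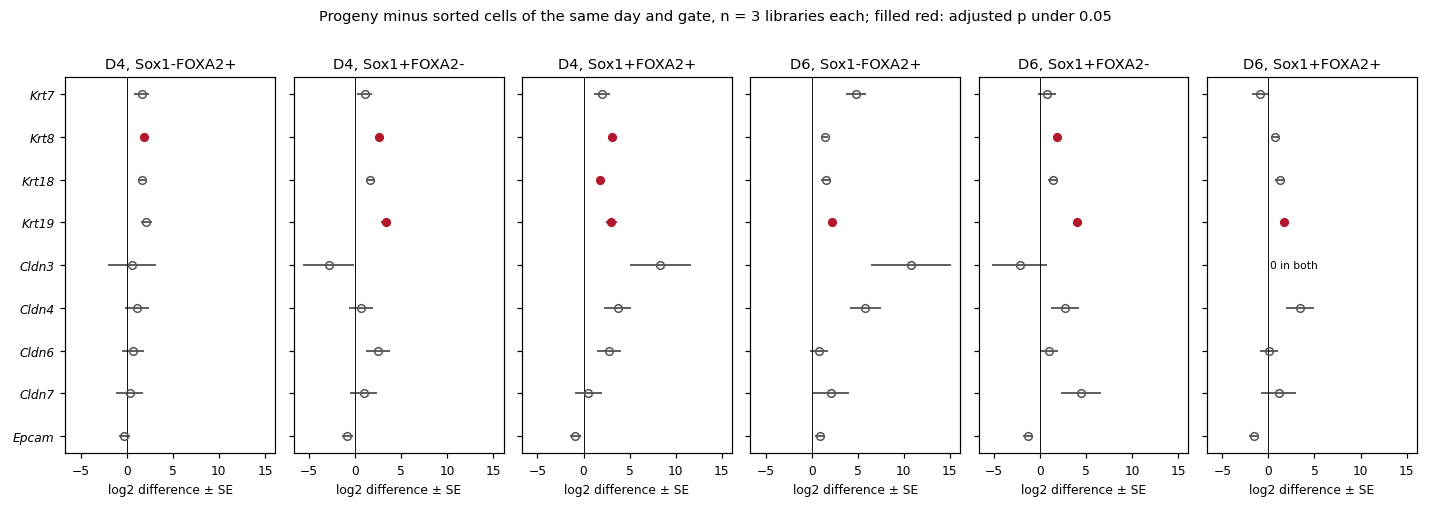
Log2 difference between progeny and cells sorted from that gate on that day for each gene, with bars of 1 SE, in panels for D4 and D6 and each gate, and filled red points for an edgeR adjusted p under 0.05. The called points are keratins and lie between 1.69 and 3.95, and the points of Epcam lie below 0 in every panel but D6 FOXA2 single-positive.

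Whether the difference between FOXA2 single-positive and Sox1 single-positive populations itself differed between progeny and sorted cells was tested as an interaction. No gene of the 9 was called at D4, where 0% of 24857 genes were called by edgeR, with none of the 9 and 1189 of all genes at an unadjusted p under 0.05, and none and 310 called by DESeq2. At D6 none was called among 0.0196% of all genes, with 4 (Krt7, Krt19, Cldn3 and Epcam) and 2795 of all genes at an unadjusted p under 0.05, and 2 (Krt19 and Epcam) and 1200 called by DESeq2. For Epcam the difference in D6 progeny exceeded that in sorted cells by 2.23 on the log2 scale (SE 0.77, edgeR adjusted p = 0.384), and for Krt19 it was smaller by 1.80 (-1.80, SE 0.46, edgeR adjusted p = 0.219). Without the library that stood apart these values were 1.82 (SE 0.87, edgeR adjusted p = 0.486) for Epcam and -1.99 (SE 0.55, edgeR adjusted p = 0.310) for Krt19. Epcam was thus called in D6 progeny and not in sorted cells without a call for the difference between them.

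Other genes of epithelia were read from lists of keratins, claudins, tight junction and polarity genes, adherens junction and desmosome genes, epithelial regulators, and partners of Epcam with other surface proteins. In D6 progeny of FOXA2 single-positive against Sox1 single-positive cells the 8 tested genes described above had a median log2 difference of 1.53, beside -0.04 over all 21069 genes. Of 17 tight junction and polarity genes 3 were called higher and none lower (median 1.00). These were Pard6b and Patj, which belong to apical polarity complexes, and Lsr, a protein of tricellular junctions. Pard6b had a level of 4366 ± 172 against 1328 ± 288 normalized counts (log2 difference 1.68, SE 0.25, edgeR adjusted p = 9.7e-04). Of 10 tested other claudins none was called (median -0.89). Of 8 tested other keratins 1 was called higher, Krt23, at 470 ± 308 against 51.6 ± 32.9 (log2 difference 3.12, SE 0.74, edgeR adjusted p = 0.0199), and the list had a median of -0.64. Both lists held mostly genes of low counts.

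Of 19 adherens junction and desmosome genes 1 was called higher and 1 lower (median 0.19). Dsg2, a desmosomal cadherin, had 1608 ± 774 against 304 ± 153 normalized counts (log2 difference 2.36, SE 0.49, edgeR adjusted p = 0.00827), and Pkp2, a plaque protein of desmosomes, had 1235 ± 504 against 3245 ± 642 (-1.43, SE 0.29, edgeR adjusted p = 0.00773). Of 12 tested epithelial regulators 3 were called higher (median 1.18), and they were the splicing factor Esrp1, Klf4 and Klf5. Klf4 differed by 2.77 (SE 0.37, edgeR adjusted p = 4.3e-04). Of 10 tested Epcam partners and surface genes 3 were called higher (median 1.38), which were the tetraspanin Cd9, the membrane protease St14 and the clathrin adaptor subunit Ap1m2. Cd9 was the largest, with 15546 ± 2101 against 839 ± 104 normalized counts (log2 difference 4.17, SE 0.25, edgeR adjusted p = 4.0e-06).

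The lists too leaned on the library that stood apart. Without it 2 of 8 of the genes described above were called higher, where 7.23% of all genes were called in either direction. Their median was -0.27 beside -0.01 over all genes. Then 2 tight junction genes were called higher (median 0.20), 1 adherens junction gene higher and 4 lower (-0.23), 2 regulators higher (0.58), 3 Epcam partners higher and 1 lower (0.42), 1 other keratin higher (-0.53) and no other claudin (-0.46). Cdh1 had 32602, 2264 and 4724 normalized counts in the D6 progeny of FOXA2 single-positive cells and 1849, 2762 and 1977 in that of Sox1 single-positive cells, and was not called (log2 difference 2.57, SE 0.80, edgeR adjusted p = 0.0801). Its groups overlapped. Grhl2 (a regulator of epithelial junction genes) differed by 2.15 (SE 0.94, edgeR adjusted p = 0.250) with 2215 normalized counts in the library that stood apart and 82.2 and 222 in its replicates. Ovol2 (1.49), Ocln (1.00) and Cldn9 (-1.16) were not called.

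In sorted cells at D6 the same lists held a single call between FOXA2 single-positive and Sox1 single-positive cells, Klf5, with 9142 ± 400 against 2037 ± 1370 normalized counts (log2 difference 2.37, SE 0.53, edgeR adjusted p = 0.0230). Cdh1 had 1827 ± 1149 against 1899 ± 854, with a log2 difference of 0.19 (edgeR adjusted p = 0.960), and Grhl2 had 108 ± 123 against 582 ± 180 (-2.41, edgeR adjusted p = 0.388). Ocln (-0.30), Ovol2 (1.49) and Cldn9 (4.73) were not called. In double-negative cells Grhl2 fell from D0, where it had 1845, 7375 and 1788 normalized counts, by D2 (log2 difference -4.02, SE 0.75, edgeR adjusted p = 0.0179) and D6 (-3.15, SE 0.72, edgeR adjusted p = 0.0229). At D6 progeny against sorted Sox1 single-positive cells, 5 of 19 adherens junction and desmosome genes and 2 of 17 tight junction genes were called higher and none lower.

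The genes whose level over the 19 conditions was most like that of Krt8, Cldn6 and Epcam were ranked by Pearson's r of log2 normalized counts plus 1, among 13921 genes with a mean of at least 100 normalized counts. The points are condition means of shared libraries, and r is given as a description. Nearest to Krt8 were Tpm4 (0.949), Krt18 (0.947), Rai14 (0.945), Ahnak (0.940) and Afdn (0.939), of which Tpm4 is a tropomyosin and Afdn a protein of adherens junctions. Nearest to Cldn6 were Klf5 (0.907), Tent5a (0.902), Pdgfra (0.897), Atp1b1 (0.897) and Ggta1 (0.897). Nearest to Epcam were Tubb4b (0.911), Cdca3 (0.905), Birc5 (0.889), Ak4 (0.883) and Fbxo5 (0.877), of which Cdca3, Birc5 and Fbxo5 are genes of the cell cycle. Among the 8 genes that passed this minimum (Cldn3 did not) Krt18 and Krt19 (0.977), Krt8 and Krt18 (0.947) and Krt8 and Krt19 (0.927) lay closest to each other, and Krt19 and Epcam farthest apart (-0.649).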

How the data were processed

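Bulk RNASeq was performed with the SMART-Seq Stranded Kit. The authors aligned reads with STAR, sorted them with SAMtools and counted them with featureCounts on GENCODE M21 (GRCm38), with versions and strand settings not given in the sources used here, and deposited raw counts per gene. The 92 lines that name no gene held 0 counts.

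Genes were tested with edgeR 4.0.16 in R 4.3.3 (quasi-likelihood test, TMM, filterByExpr at a smallest count of 10 and a total of at least 15, prior count of 0.125, two-sided, Benjamini-Hochberg adjusted p under 0.05), with the populations of a day and arm in a fit. Changes from D0 were fitted over double-negative cells, changes from D2 to D6 over the single-positive gates, and progeny against sorted cells of a day over the 3 shared gates. Normalized counts used DESeq2 1.42.0 size factors. edgeR was run by default and with its robust option. The robust option was tried after the data were seen, because its counts equalled those of an earlier analysis of these data, and the default of the written design was kept as the main setting. The 16 calls were the same under both. The alternatives were DESeq2's Wald test, DESeq2 size factors in edgeR, no filter, the replicate block, all 57 libraries in a fit, and leaving libraries out. The fit of D6 progeny against sorted cells without the library that stood apart was added after seeing the data. Scripts were tested on simulated data.

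Replicate numbers were taken to pair libraries where deviations from group means correlated by more than 0.1 for all 3 numbers over 5000 genes. This held in 5 of 9 comparisons of sorted gates, 5 of 6 of progeny, 0 of 5 of days and 0 of 6 of progeny with sorted cells. The pairing thus comes from the data.

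Genes and lists were chosen with earlier results of these data known. Named are the 9 genes, up to 3 called genes of each list with the largest differences, Cdh1, Cldn9, Grhl2, Ovol2 and Ocln, marker genes beside a result, and the 5 genes most like Krt8, Cldn6 and Epcam. Near copies of at least 90% identity over 400 bases (blastn 2.17.0+) were found for Krt8 (0 counts) and Krt18 (804 counts, 0.172% of those of Krt18). Exon bases shared with another gene were 5.16% in Krt8, 3.18% in Cldn3, 1.09% in Krt7 and 0 in the other members. RefSeq promoters were found for 8 of the 9 genes, all but Krt19. A gene that the rule for named genes also covers is not reported here.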

Additional observations from a re-analysis of the deposited data

How the results depend on the processing

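Of the 16 calls, none changed direction in any alternative. Epcam (FOXA2 single-positive against Sox1 single-positive D6 progeny), Krt8 (D6 against D2 in FOXA2 single-positive, and D4 progeny against sorted Sox1 single-positive and double-positive cells) and Krt19 (D6 progeny against sorted Sox1 single-positive cells) were called in every alternative run for them. With the robust option and with DESeq2 size factors in edgeR the counts stayed within 1.5 times. In all, 52 of 174 counts moved by more with no library left out, and 21 of 235 with libraries left out. The cause was not tested.

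DESeq2's Wald test called 1 of the 9 genes, where edgeR called 0, between double-positive and FOXA2 single-positive cells at D4 and D6, between FOXA2 single-positive and Sox1 single-positive and between double-positive and Sox1 single-positive cells at D6, between double-positive and Sox1 single-positive progeny at D4 and D6, for D4 and D6 against D0, for D6 against D2 in Sox1 single-positive cells and for the difference in change from D2 to D6. It called 2 between FOXA2 single-positive and Sox1 single-positive D4 progeny, 2 for D6 against D2 in FOXA2 single-positive cells, 2 for the interaction at D6, 3 for progeny against sorted FOXA2 single-positive cells at D4 and at D6, and 2 for double-positive cells at D6. In these 16 comparisons it called between 0.404% and 17.0% of all genes.

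With no filter on low counts, edgeR called 1, 2 and 1 between FOXA2 single-positive and Sox1 single-positive cells at D2, D4 and D6, 4 and 8 in D4 and D6 progeny, 2 between double-positive and FOXA2 single-positive cells at D4, 1 and 7 in D4 and D6 progeny, and 2 between double-positive and Sox1 single-positive progeny at D4 and at D6. It called 4 and 3 for D4 and D6 against D0, 2 and 1 for D6 against D2 in FOXA2 single-positive and Sox1 single-positive cells, 3, 4 and 5 for D4 progeny against sorted FOXA2 single-positive, Sox1 single-positive and double-positive cells, 5 and 3 for D6 progeny against sorted FOXA2 single-positive and double-positive cells, and 1 for the interaction at D6. In these 20 comparisons it called between 0.228% and 6.60% of all genes, of which 6.60% and 5.80% belong to the comparisons with 8 and 7 of the 9 genes. Both of these comparisons include the library that stood apart.

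With all 57 libraries in a fit, 1 was called between FOXA2 single-positive and Sox1 single-positive D6 progeny, 0 between double-positive and FOXA2 single-positive D6 progeny, 1 for D6 against D0, and 0, 1 and 1 for D4 progeny and 0, 1 and 0 for D6 progeny against sorted FOXA2 single-positive, Sox1 single-positive and double-positive cells, beside 0.0405% to 2.64% of all genes.

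With the replicate block, 1 was called between double-positive and FOXA2 single-positive cells at D4 (Krt8, adjusted p = 0.0262), 1 between FOXA2 single-positive and Sox1 single-positive cells at D6, 4 between their D4 progeny, 1 between double-positive and FOXA2 single-positive D4 progeny, 1 for D6 against D0 (Krt18, 0.0247), 1 for D6 against D2 in Sox1 single-positive cells (Krt18, 0.0297) and 2 for D4 progeny against sorted FOXA2 single-positive cells (Krt18 added, 0.0329), beside 0.207% to 5.78% of all genes. Krt18 was added in D4 progeny against sorted Sox1 single-positive cells (0.0182), and Krt8 was lost between FOXA2 single-positive and Sox1 single-positive D6 progeny (0.0565). The block added Krt7 between double-positive and FOXA2 single-positive D6 progeny, and it changed no other call. Where replicate numbers do not pair the libraries, these are values under a shared number only.

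With libraries left out, counts ranged from 0 to 1 between FOXA2 single-positive and Sox1 single-positive cells at D6, 0 to 2 between their D4 progeny, 1 to 3 between double-positive and FOXA2 single-positive D6 progeny, 0 to 2 for D6 against D0, 0 to 1 for D6 against D2 in Sox1 single-positive cells, 0 to 3 and 1 to 3 for D4 progeny against sorted FOXA2 single-positive and double-positive cells, and 0 to 2, 1 to 3 and 0 to 1 for D6 progeny against sorted FOXA2 single-positive, Sox1 single-positive and double-positive cells. The share of all genes called moves with the libraries too. Between FOXA2 single-positive and Sox1 single-positive D6 progeny it was 6.78% with the library that stood apart and 7.23% without it. Where no share is printed for a fit that leaves libraries out, here or above, its count is not set against all genes. Cldn3 and Cldn7 had the lowest medians in sorted cells, at 11.6 and 39.7 normalized counts.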
